A study of Mus musculus with 4 samples.

Results

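The Fanconi and crosslink repair genes described here are 10 genes, Atrip, Blm, Brip1, Ercc4, Fancc, Fance, Fancg, Fancm, Telo2 and Top3b, out of 10925 genes for which the deposited lists of acetylated regions name a transcription start site (TSS). They were chosen from these data, with their promoter state known. Of 19 genes that the deposited annotation assigns to the Fanconi anemia pathway, they are the 10 whose promoter carried a region in one group only. Acetylation of histone H3 at lysine 27 (H3K27ac), found at promoters and enhancers in use, was mapped by CUT&Tag, which tethers a DNA-cutting transposase to an antibody bound to the mark. Liver came from wild-type C57/BL6J mice 12 h after 70% partial hepatectomy (PHx, 2 libraries), a standard model of liver regeneration. It was compared with liver of sham-operated mice of that strain (2 libraries), whose sampling time the labels leave blank and the design text puts at 0 h. Neither age nor sex is stated in the labels, and they do not tie libraries to animals, so the 2 libraries of a group may be technical replicates. The regions of both libraries of a group come merged into 1 list (GRCm39) with positions and widths alone. Depth is therefore unknown, the values below carry no replicate error, and the groups could not be tested against each other. Since bulk liver was used, fewer cells of a type and less mark per cell cannot be told apart.

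The Fanconi anemia pathway repairs DNA interstrand crosslinks, lesions that tie both strands together and block replication. A multi-subunit core complex recognises the stalled fork and ubiquitinates a clamp, after which nucleases unhook the crosslink and homologous recombination completes the repair. Helicases and topoisomerases resolve the joined DNA, and the ATR kinase signals the stall to the cell cycle. Repair by this pathway takes place mainly in S phase, and adult hepatocytes are mostly quiescent until part of the liver is removed.

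Of the 10 genes, 2 had a promoter region after PHx alone (PHx only) and 8 in sham liver alone (sham only), where a promoter counted as marked when a region overlapped its TSS ± 1 kb. Fancm and Fancg were the PHx-only genes. The sham-only genes were Fance and Fancc of the core complex, Brip1 and Ercc4, which act on the DNA, Blm and Top3b, and the checkpoint genes Atrip and Telo2. Over all listed genes, the PHx-only share was 17.8% and the sham-only share 8.19%. The members' own counts follow from how they were chosen, so nothing is read from them against these shares.

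The sequences at the start sites are shown because the presence of the mark there is what sets the groups apart. All 10 genes matched the RefSeq promoter windows, which span 250 bases before to 50 bases after a start site on GRCm38.p6, a different build from that of the region lists. For 5 genes a window starts at a transcript as long as the one the deposited lists name, and those 5 are printed 5′ to 3′ along the gene, with the PHx-only Fancg first. Capitals mark matches on either strand to the E2F words TTTCCCGC, TTTGGCGC, TTTCGCGC and TTTGCCGC, the CCAAT box, the ETS core CCGGAAG, the GC box GGGCGG, the NRF1 core GCGCATGC, the cyclic AMP element TGACGTCA or the TATA box TATAAA. No matches overlap each other in these 5 windows.
Fancg, chr4:43010252-43010551, minus strand: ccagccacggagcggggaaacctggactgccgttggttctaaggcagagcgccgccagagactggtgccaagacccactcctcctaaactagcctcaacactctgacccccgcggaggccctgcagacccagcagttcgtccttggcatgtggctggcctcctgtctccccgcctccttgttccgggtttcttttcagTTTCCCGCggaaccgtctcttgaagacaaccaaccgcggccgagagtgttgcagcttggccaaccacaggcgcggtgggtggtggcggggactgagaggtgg
Fance, chr17:28313280-28313579, plus strand: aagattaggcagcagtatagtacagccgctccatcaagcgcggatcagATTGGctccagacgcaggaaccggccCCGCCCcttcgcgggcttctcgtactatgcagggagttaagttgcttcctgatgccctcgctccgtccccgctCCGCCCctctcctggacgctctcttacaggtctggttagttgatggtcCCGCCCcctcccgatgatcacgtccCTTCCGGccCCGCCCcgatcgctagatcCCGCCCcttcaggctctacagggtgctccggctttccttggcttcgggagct
Blm, chr7:80534949-80535248, minus strand: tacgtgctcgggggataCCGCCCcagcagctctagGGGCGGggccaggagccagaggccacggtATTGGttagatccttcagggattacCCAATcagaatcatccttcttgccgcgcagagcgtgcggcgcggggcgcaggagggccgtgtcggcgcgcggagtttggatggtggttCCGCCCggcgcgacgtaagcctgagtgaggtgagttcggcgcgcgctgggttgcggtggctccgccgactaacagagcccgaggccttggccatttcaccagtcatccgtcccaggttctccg
Atrip, chr9:109074075-109074374, minus strand: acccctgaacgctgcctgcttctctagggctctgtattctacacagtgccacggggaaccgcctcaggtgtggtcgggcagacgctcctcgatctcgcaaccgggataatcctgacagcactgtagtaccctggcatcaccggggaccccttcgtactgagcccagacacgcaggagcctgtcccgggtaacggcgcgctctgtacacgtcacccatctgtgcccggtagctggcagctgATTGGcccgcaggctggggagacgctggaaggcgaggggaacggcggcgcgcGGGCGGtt
Telo2, chr17:25115856-25116155, minus strand: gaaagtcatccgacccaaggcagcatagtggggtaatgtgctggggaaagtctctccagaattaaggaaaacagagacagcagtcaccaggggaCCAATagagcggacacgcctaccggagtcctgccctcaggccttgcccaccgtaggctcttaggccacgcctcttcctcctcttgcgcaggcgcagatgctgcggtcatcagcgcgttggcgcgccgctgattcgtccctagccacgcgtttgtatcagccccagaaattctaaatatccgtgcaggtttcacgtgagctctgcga

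By median, the RefSeq windows of these genes were rich in CpG. Those of Brip1, Ercc4, Fancc, Fancm and Top3b start at transcripts of another length than the listed ones, so they may lie away from the listed TSS. The ratio of observed to expected CpG had a median of 0.846 over the 11 windows of the 10 genes (lowest 0.633 at Fancg, highest 1.08 at Ercc4), against 0.642 over the 10126 windows of genes with a listed TSS and 0.384 over all 32851 windows. GC content had a median of 58.0%, against 58.3% and 52.7% in those sets, and was lowest at Top3b with 45.7%. A CCAAT box lay in a window of 9 of the 10 genes, all but Fancg, while 35.6% of windows of genes with a listed TSS and 37.4% of all windows held one. Here and below the counts are of genes and the shares are of windows. Some genes have several windows, so the counts and shares are not like for like. Fancg was the single gene with an E2F word, TTTCCCGC from base 199 of its window; 2.74% of windows of listed genes and 2.26% of all windows hold one of these words. The GC box was found at 5 genes (Blm, Brip1, Fance, Fancm and Atrip), against 51.3% and 35.7% of windows, and the ETS core at 3 (Brip1, Fance and Top3b), against 12.2% and 8.86%. Fancm alone held the NRF1 core, present in 3.73% of windows of listed genes and 2.71% of all, and its window starts at another transcript than the listed one. The cyclic AMP element, in 2.29% and 1.79% of windows, and the TATA box, in 9.26% and 13.6%, were found at 0 of the 10 genes. Such matches describe letters in a window, and the words were picked after the lists had been seen.

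Fancm, the DNA translocase that anchors the core complex on DNA, had a region of 8708 bp in PHx liver (chr12:65116993-65125700) and none in sham liver. The PHx region reached from 3891 bp upstream to 4816 bp downstream of the listed TSS. It was narrow for its list, with 14.4% of all marked PHx promoters narrower. The nearest sham region lay 34066 bp upstream, at the promoter of Prpf39, a splicing factor gene, which was marked in sham only. In the downstream direction the next sham region, at Mgat2, was 4106730 bp away. Within 50 kb of the Fancm TSS each list thus held 1 region, and the 2 regions did not overlap.

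Fancg, a scaffold subunit of the core complex, was the other PHx-only gene, and there the PHx region was shared with a second gene. The region of 15580 bp (chr4:42996252-43011831) reached 1530 bp upstream and 14049 bp downstream of the Fancg TSS. It covered the whole listed transcript of 7965 bp and ran on over the TSS of Vcp, 9794 bp downstream on the same strand, which encodes a ubiquitin-dependent segregase. In sham liver the Vcp promoter had a region of 5045 bp that ended 8901 bp short of the Fancg TSS. Vcp was therefore marked in both groups but Fancg after PHx alone, through a region that in sham covered the Vcp end alone. Fancg was the only one of the 10 genes whose promoter region overlapped a region of the other list. Over all genes, 61.9% of PHx-only and 93.4% of sham-only promoters had a region without such an overlap, and since the 10 were chosen for being in one list only, nothing is read from their counts. Upstream, Stoml2 was marked in sham only and Fam214b in both.

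Fance, the core complex subunit that binds the clamp protein FANCD2, had no promoter region in PHx liver and one of 3997 bp in sham liver (chr17:28529975-28533971). It lay between shared regions. PHx regions flanked the TSS at 16920 bp upstream, at Ppard, and at 11308 bp downstream, at Rpl10a. The Rpl10a region was nearly the same in both lists, with 9058 bp in PHx and 8934 bp in sham, and Rpl10a and Tead3 were both marked in both groups. The sham region at Fance was among the narrow ones, with 4.77% of all marked sham promoters narrower.

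Fancc, a core complex subunit that partners Fance, had no PHx region within 50 kb and 2 sham regions. The sham region at the most upstream listed TSS measured 6551 bp (chr13:63575118-63581668). A second sham region of 6503 bp (chr13:63543201-63549703) lay 29924 to 36426 bp downstream and was assigned to Fancc as well, 1149 bp from another listed start. The nearest PHx regions were 96826 bp downstream, at Aopep, and 103740 bp upstream, at Ptch1. Both promoter-class regions of Fancc were thus in the sham list only.

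Brip1, a helicase that works with BRCA1 and is also known as FANCJ, had no PHx region and the narrowest sham region of the 8 sham-only genes, 3261 bp (chr11:86090204-86093464). Only 1.28% of marked sham promoters were narrower. It was also the most isolated: the nearest PHx region, at Med13, was 142989 bp away, and the sham list held no other region within 50 kb. Ercc4 encodes XPF, the endonuclease subunit that cuts beside the crosslink. Its sham region of 3519 bp (chr16:12926826-12930344) began 404 bp upstream of the TSS, the shortest upstream reach of the 10, and ran 3114 bp downstream. The PHx list held nothing within 50 kb of Ercc4, the nearest region being 74418 bp downstream at Gm32596, whose own TSS was marked in sham only.

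Blm, the RecQ helicase that dissolves joined DNA molecules, had no PHx promoter region and a sham region of 3970 bp (chr7:80182455-80186424). The nearest PHx region was 44495 bp upstream at Gm42398, where the regions measured 14974 bp in PHx and 7990 bp in sham and overlapped. Top3b encodes a type IA topoisomerase that acts on DNA and RNA, related to the TOP3A partner of BLM. Its sham region measured 6151 bp (chr16:16687295-16693445). In PHx liver the nearest region began 10252 bp downstream, where 1 region of 31908 bp at Ppm1f overlapped 2 sham regions of 16274 and 8376 bp. Ppm1f was marked in both groups.

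Atrip, the partner that brings the ATR kinase to single-stranded DNA, had no PHx promoter region and the widest sham one of the 8, 8528 bp (chr9:108897978-108906505). It came closest to a region in both lists: every other gene had its TSS farther from the list without a promoter region, and all 10 promoter regions held the TSS itself. The PHx region at Ccdc51, 44119 bp wide, ended 3995 bp upstream of the Atrip TSS, and 681 bp separated it from the sham region of Atrip. On the other side a PHx region of 16543 bp at Shisa5 began 10129 bp downstream. Telo2 encodes a cochaperone that stabilises ATR and related kinases. It had no PHx promoter region and a sham region of 6920 bp (chr17:25329076-25335995), with the nearest PHx region 24716 bp downstream at Tmem204.

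**Figure D1:**
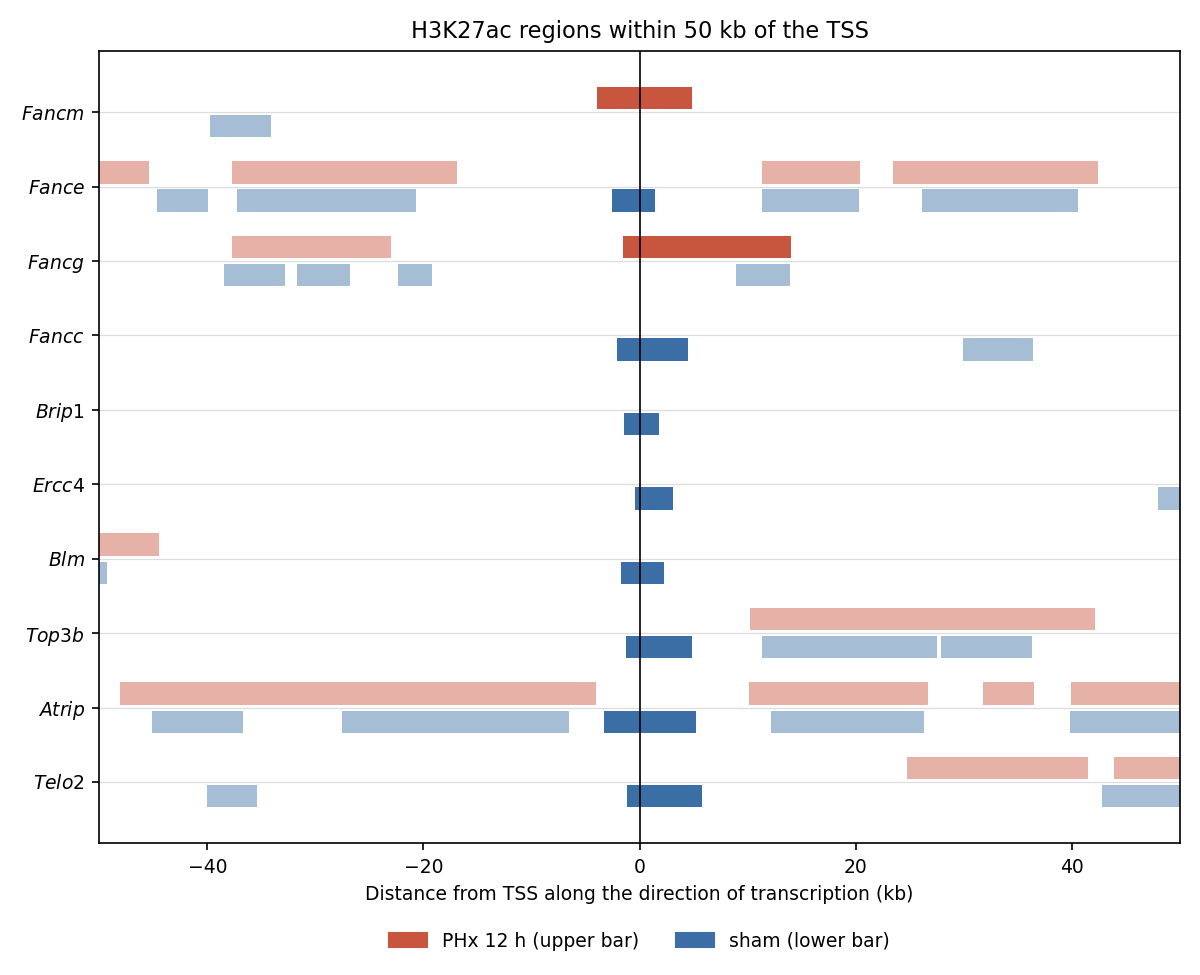
Regions of the PHx 12 h list (upper bars) and of the sham list (lower bars) within 50 kb of the TSS of each gene, by distance from the TSS in kb along the direction of transcription; full colour marks the region at the promoter. Fancm and Fancg have a PHx region across the TSS, the other 8 genes a sham region, and no PHx bar appears for Fancc, Brip1 and Ercc4.

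Away from the start sites both lists held regions near most of the 10 genes. Leaving out the promoter regions, 13 PHx and 20 sham regions lay within 50 kb of a TSS, and 11 of the PHx and 14 of the sham regions overlapped a region of the other list; over the whole lists 77.5% of PHx and 86.0% of sham regions did. With the promoter regions by which the genes were chosen counted in, 22.8% of the length within 50 kb was covered in PHx liver and 21.2% in sham liver. The genes were unlike in this, from 0% at Brip1 to 75.5% at Atrip in PHx and from 3.26% to 62.3% at the same genes in sham. The whole lists covered 196.9 Mb in PHx and 121.5 Mb in sham. For 3 genes, Brip1, Ercc4 and Fancc, no PHx region lay in this range, as was so for 36.3% of all 895 sham-only genes. Of the 15 other genes with a listed TSS there, 3 were PHx only, 4 sham only, 6 in both lists and 2 in neither, where the shares over all listed genes were 17.8%, 8.19%, 59.1% and 14.9%. The distance from the TSS to the nearest PHx region was 3995 to 142989 bp over the 8 sham-only genes (median 34606 bp), against a median of 32664 bp (quartiles 11534 and 75184 bp) over all 895 sham-only genes. For the 2 PHx-only genes the nearest sham region was 34066 bp from Fancm and 8901 bp from Fancg, against a median of 17843 bp over all 1947 PHx-only genes.

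No listed gene shared a bidirectional promoter with one of the 10. In the deposited lists 0 opposite-strand TSSs lay within 1 kb of a member's TSS, the nearest being that of Ccdc51, 8372 bp upstream of Atrip and marked in both groups. By the RefSeq start sites on GRCm38.p6, 14.6% of 7776 listed genes had a head-to-head partner within 1 kb upstream, and 0 of the 10 did. That count holds for the RefSeq starts, which match the listed transcript in length at 5 of the 10 genes. Fkbp3, an immunophilin gene, starts 1665 bp upstream of Fancm and Vpreb1 1481 bp upstream of Top3b, each on the opposite strand. Neither has a listed TSS, and these RefSeq starts of Fancm and Top3b, on another build, are not those of the listed transcripts. Listed transcripts measured 57626 bp at Fancm and 22264 bp at Top3b, against 56240 and 22251 bp from the RefSeq starts. Whether either partner lies within 1 kb of the listed TSS, and the states of both partners, were therefore not determined here.

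Regions at the sham-only genes were narrow. All 8 were narrower than 8534.5 bp, the median of the 7354 marked sham promoters, although Atrip at 8528 bp was so only by a few bases, and 4 (Brip1, Ercc4, Blm and Fance) were in the narrowest 5%. Sham-only promoters were narrower than shared ones in general, with a median of 5780 bp (quartiles 4580 and 7831 bp) against 9071 bp at promoters marked in both. Within the sham-only class the 8 genes lay on both sides of that median, with 4 below and 4 above, and their own median was 5074 bp. The PHx region of Fancg, 15580 bp, was near the median of PHx-only promoters, 14785 bp, while that of Fancm, 8708 bp, lay below their lower quartile of 10366 bp.

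**Figure D2:**
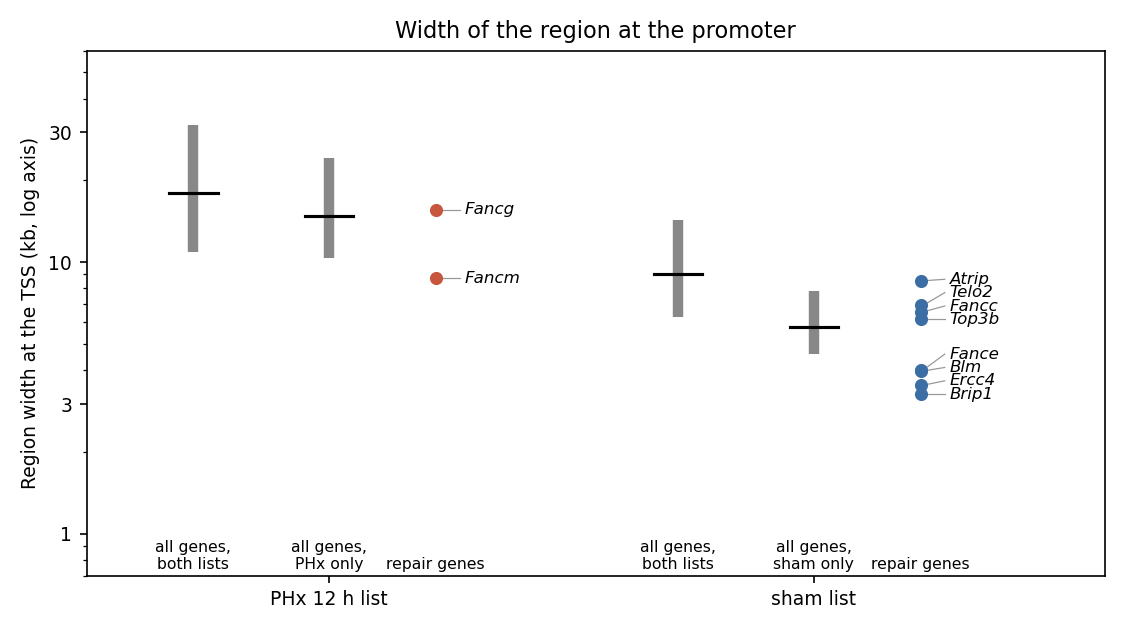
Width of the region at the TSS in kb (log axis) for the PHx 12 h list (left) and the sham list (right). Grey bars give the quartiles and black lines the median over all genes marked in both lists or in that list only, and points give the repair genes. The sham-only genes run from 3261 bp at Brip1 to 8528 bp at Atrip, below the median of 9071 bp at promoters marked in both.

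Most of the rest of the pathway was marked in both groups. Of the 9 genes annotated to the Fanconi anemia pathway that were not chosen, 8 were marked in both and 1, Fanca, in neither, with 5047 bp from its listed TSS to the nearest PHx region and 10641 bp to the nearest sham region. Since the other 10 were taken for being in one group only, this split follows from the choice; over the whole pathway 2 genes were PHx only, 8 sham only, 8 in both lists and 1 in neither. At the 8 shared promoters the regions were wider in PHx at 6 and narrower at 2. Faap100, a core complex subunit, had 17910 bp in PHx and 6839 bp in sham, a ratio of 2.62. Rpa1, the large subunit of the single-strand binding protein that recruits ATRIP, had 15522 bp in PHx and 6141 bp in sham. Eme2, a nuclease partner of MUS81, had 66351 bp in PHx and 29038 bp in sham, the widest regions of the pathway in either list. Brca1, the recombination factor that BRIP1 binds, had 21672 bp in PHx and 10725 bp in sham, and Poli, a lesion bypass polymerase, 12514 and 6781 bp in the same order. Slx4, the scaffold that docks XPF at the crosslink, had 8093 bp in PHx and 7079 bp in sham. Narrower regions in PHx were found at Cenpx (23098 bp, against 26755 bp in sham), which encodes a histone-fold partner of FANCM, and at Usp1 (6873 bp, against 7837 bp in sham), the enzyme that removes ubiquitin from the clamp. The median ratio of PHx to sham width was 1.93 over these 8, against 1.74 (quartiles 1.24 and 2.81) over all 6459 genes marked in both.

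**Figure D3:**
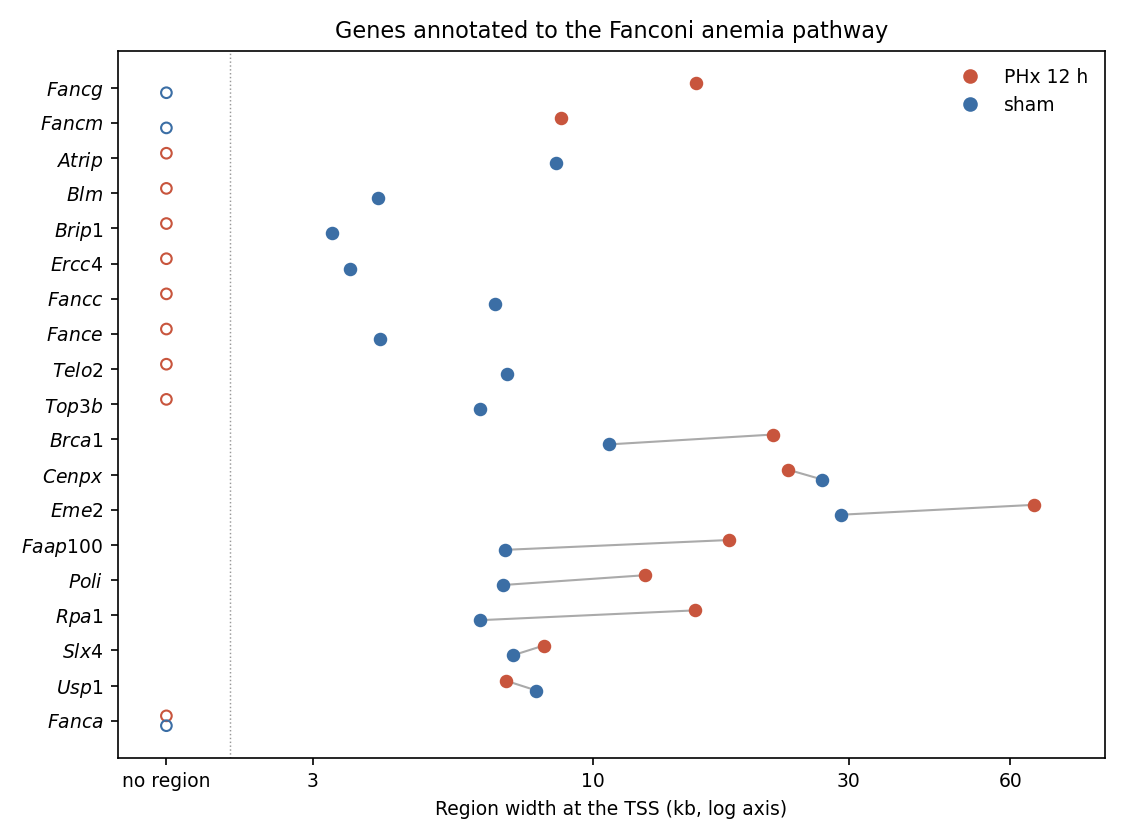
Region width at the TSS in kb (log axis) of the 19 genes annotated to the Fanconi anemia pathway, for PHx 12 h (red) and sham (blue); open circles stand for no region within 1 kb of the TSS. The 10 genes at the top have a region in one list only, the next 8 in both, 6 of them wider in PHx, and Fanca in neither.

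A list of 74 further gene names from 7 functional groups of crosslink repair had 19 with a listed TSS. The list leaves out the 10 genes taken for being in one list only and shares Brca1, Cenpx, Eme2, Faap100, Fanca, Rpa1, Slx4 and Usp1 with the pathway just described, so its split follows in part from that choice. The PHx-only genes numbered 2, the sham-only genes 1, and 14 were in both lists and 2 in neither. Among protein-coding genes in general, 15.4% were PHx only, 9.78% sham only, 66.0% in both lists and 8.79% in neither, and nothing is read from the list's counts against these shares. Bard1, the partner of BRCA1, had a region of 10852 bp in PHx and none in sham within 536921 bp, and Abraxas1, a BRCA1-associated scaffold, had 9548 bp in PHx and none in sham within 12738 bp. Atm, the kinase of the double-strand break checkpoint, had no PHx region and 5162 bp in sham, with the nearest PHx region 43692 bp away. Fanca and Rpap3 were in neither. Among the shared ones the width ratio ran from 0.800 at Xrcc3 (23021 bp in PHx and 28791 bp in sham) to 2.62 at Faap100. Dclre1a, a crosslink repair nuclease, had 11764 bp in PHx and 4633 bp in sham, and Rpa1, Cenpx and Usp1 were the others at the ends of the range. The median ratio of the 14 was 1.53.

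Wider terms of the deposited annotation also held genes in one list only, counted here with and without the 10 chosen genes. Of the 16 genes annotated to interstrand cross-link repair, 3 were PHx only, 4 sham only, 7 in both and 2 in neither. Of these, 12 were not among the 10 described above. Among the 12, Xpa, a nucleotide excision repair factor, was PHx only (6988 bp), and Ercc6l2 (4255 bp) and Msh6, a mismatch recognition subunit (12069 bp), were sham only. Of 154 genes annotated to DNA repair, 21 (13.6%) were PHx only, 22 (14.3%) sham only, 99 in both and 12 in neither, against the shares of 15.4%, 9.78%, 66.0% and 8.79% over all protein-coding genes. Without the 7 of the 10 that carry this term, 19 (12.9%) were PHx only and 17 (11.6%) sham only. These terms were looked up after the lists had been seen.

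The region lists carry some trace of single libraries. Every listed region joins at least 1 peak of each library of its group, and peak numbers run in genomic order, so a number missing between neighbouring regions belongs to a peak of that library outside any region of the list as used here. At 9 of the 10 genes such a number was missing in the list without a promoter region, between the regions that flank the TSS. Over all genes it was so at 84.8% of PHx-only promoters and 83.8% of sham-only promoters, so the 10 genes were near this background. At the 8 sham-only genes PHx library 2 had a missing number at 7 and PHx library 1 at 1, Telo2; over all sham-only genes the shares were 73.5% and 31.0%. The stretch was 14123 bp at Atrip and 28227 bp at Fance, each with 1 number of library 2 and 0 of library 1 between the flanking regions. At Fancc 2 numbers of library 2 were missing in 200565 bp. Sham liver had 2 regions within 50 kb of that TSS, and sham regions in the rest of the stretch were not counted. Blm was the single gene with 0 missing numbers in both PHx libraries, over 113763 bp. For the PHx-only genes, sham library 1 had 1 missing number in 28077 bp at Fancg, and sham library 2 had 1 in 4140795 bp at Fancm. A missing number can lie anywhere in its stretch, and stretches ran up to 1273012 bp at Ercc4 among the sham-only genes, so whether it marks the promoter itself was not tested.

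**Figure D4:**
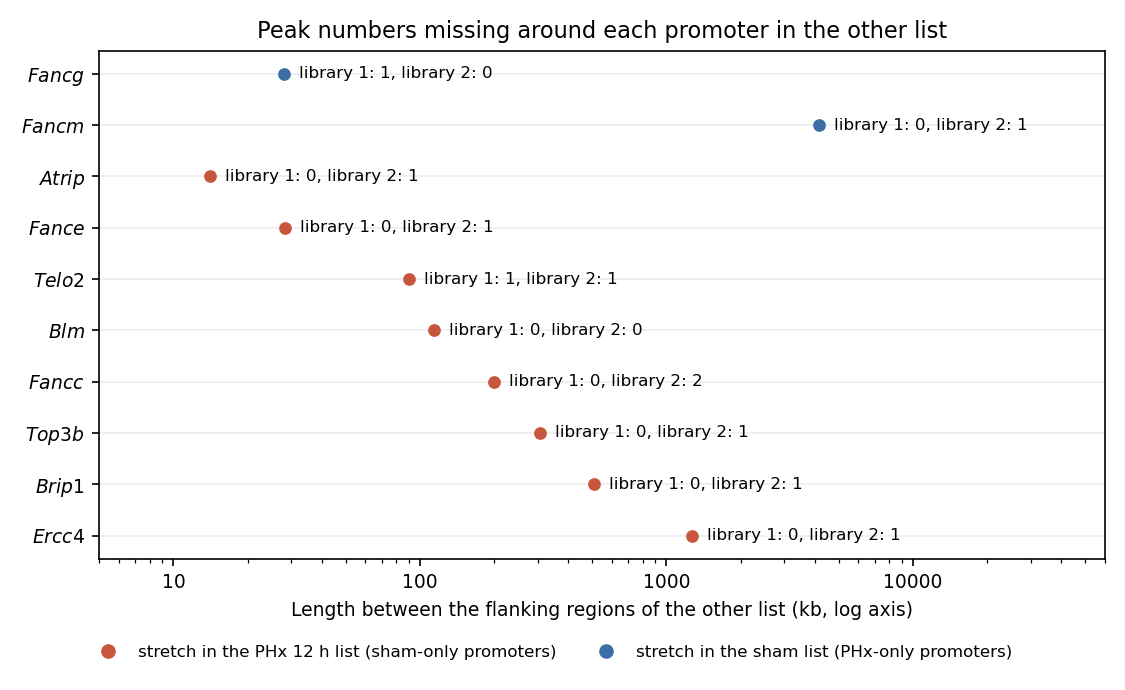
Length in kb (log axis) between the regions that flank each promoter in the list where it has none, with the count of peak numbers missing there in each library of that list. Red points are stretches of the PHx 12 h list and blue points of the sham list; in the red rows library 2 lacks a number at 7 of 8 genes and library 1 at 1.

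The lists as a whole set the scale of these values. The PHx list held 10170 regions with a median width of 14551 bp and the sham list 11602 regions with a median of 8153 bp. Counted up to the highest peak number listed, 87.6% and 78.8% of the peaks of PHx libraries 1 and 2 entered a region. In sham the shares were 73.3% and 71.4%. Peaks numbered beyond the highest one listed are not counted, so the shares of all peaks can be lower. Liver identity was visible in both lists, with 7 of 8 hepatocyte markers with a listed TSS marked in both groups, among them Alb, Apoa1 and Hnf4a, and Cps1 in PHx only. Of 5 endothelial markers 4 were PHx only, 0 sham only and 1 in neither, and of 4 Kupffer cell and macrophage markers 2 were PHx only and 2 in both lists. Colec11, the single stellate cell marker with a listed TSS, was in PHx only, Sox9 of cholangiocytes in both, and Snap25 of other tissue in neither. The part of cell makeup, region width and library differences in the promoter states of the 10 genes was not tested.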

How the data were processed

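H3K27ac CUT&Tag was run on 4 mouse liver libraries, 2 per group. The authors deposited 1 table of merged regions per group; per the file headers these give start, end and width in bp, the assigned transcript with its strand, and the distance to its TSS. Per the submitters' processing notes, Bowtie2, SEACR, ChIPseeker and DiffBind were used with GRCm39 (mm39), without versions; caller thresholds are not given in these sources. Each region is as long as its joined peaks, so broader peaks give wider regions and reach more TSSs.

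The TSS of a gene was the most upstream start listed for it in either table. A wide region names only 1 gene, so unlisted genes can lie inside a region. Overlap meant at least 1 bp. Tables were read with Python 3.11.15 and pandas 2.3.3; the code was tested on simulated lists. The members and gene lists were chosen with earlier results of these data known. Named were all 10 members, genes sharing their regions, and pathway genes in one group only or at the ends of the width ratio. Alternatives varied the TSS window, TSS choice, gene assignment, distance and overlap. Gene names and sequences came from RefSeq tables of GRCm38.p6.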

Additional observations from a re-analysis of the deposited data

How the results depend on the processing

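The states of the 10 genes, 8 in sham only and 2 in PHx only, were the same with the TSS base alone, with TSS ± 3 kb, with any listed TSS and by the authors' own assignment. The genes were chosen by this state, and the authors named each of them in 1 list only. Their listed TSSs came from those same rows, so nothing is read from the last 2 settings. Restricted to stretches without missing peak numbers of the other group, 1 sham-only gene (Blm) and 0 PHx-only genes were left, which follows from dropping the other 9. In the list of other pathway genes, PHx-only genes numbered 1 with any listed TSS and 1 by the authors' assignment, against 2, and sham-only genes 2 by that assignment, against 1. Within 25 kb there were 10 PHx and 15 sham regions, within 100 kb 27 and 41, and the authors assigned 2 and 9 regions to the genes themselves, against 15 and 28 regions within 50 kb. Of the 10 promoter regions, 9 overlapped no region of the other list, 10 with a reciprocal overlap of 50%, 8 when a gap of up to 1 kb counted as shared, and 1 when regions also had to be as wide as the median of their list. The genes were chosen for being in one list only, so nothing is read from these counts. Over all PHx-only and all sham-only promoters 61.9% and 93.4% overlapped none, and with a reciprocal overlap of 50% 89.7% and 96.9%. With a gap of up to 1 kb counted as shared, the shares were 61.1% and 91.2%. No such share was computed for the width setting. No width ratio of the 10 genes exists, since none was marked in both lists under the windows used, which reached at most ± 3 kb. No paired analysis was possible because the tables give no values per library, and for the same reason no library could be left out. Depth is unknown, so absence of a region cannot be told apart from too few reads.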
